A study of Mus musculus with 28 samples.

Results

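Broad H3K27ac domains are long stretches of chromatin in which lysine 27 of histone H3 is acetylated over many neighbouring nucleosomes. Here they were chosen by the length and presence of H3K27ac peaks themselves, as merged peaks of 10 kb or longer with a peak in all 12 H3K27ac libraries of mouse lung adenocarcinoma cells. Of 32703 merged regions, 11679 had a peak in every library, and 726 of these met the length rule. H3K27ac marks active promoters and enhancers. Stretches of many kilobases carrying it are known, in many cell types, to lie at strongly transcribed genes, at clusters of enhancers and at genes for transcription factors and microRNAs that set a cell's identity. Acetylation of lysine 9 (H3K9ac), the other mark of the series, is concentrated closer to active gene starts.

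The groups were resistant cells carrying a short hairpin against Fabp7 (Res_shFabp7), resistant control cells (Res_Ctrl, genotype "Control"), wild-type resistant cells (Res) and wild-type sensitive cells (Sen), where sensitive and resistant refer to PD-1 blockade. All were cultured in the same medium. The Res libraries alone are described as treated with PD-1 inhibitors, so resistance and that treatment cannot be told apart in Res against Sen, nor the control construct and that treatment in Res_Ctrl against Res. Each group had 3 libraries per mark, called biological replicates, and the labels describe 1 sensitive and 1 resistant line, so p-values measure the spread between libraries of a line. Fabp7, a fatty acid binding protein, had an H3K27ac peak at its start in 0 of 12 libraries and an H3K9ac peak there in 0 of 12. Within 50 kb of the gene, 5 H3K27ac and 2 H3K9ac libraries had a peak. The libraries hold acetylation marks and no RNA or protein levels, so they give no check of the knockdown.

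The longest domain held a pair of microRNA genes and the domain second in median called length held another, so their mature sequences are shown first, from RefSeq (GRCm38.p6). Bases 2 to 8, the seed that pairs with target messages, are in capitals. In all, 15 domains held 20 microRNA genes. The 5 whose microRNAs are most widely studied were picked for display with their values known.
miR-29a-3p: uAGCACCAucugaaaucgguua
miR-29b-3p: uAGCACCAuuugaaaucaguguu
miR-21a-5p: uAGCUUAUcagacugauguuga
miR-125b-5p: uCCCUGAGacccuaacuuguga
miR-23a-3p: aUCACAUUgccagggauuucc
miR-27a-3p: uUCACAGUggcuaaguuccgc
miR-24-3p: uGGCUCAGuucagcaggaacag
miR-15b-5p: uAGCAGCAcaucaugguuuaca
miR-16-5p: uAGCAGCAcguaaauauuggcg
The pair miR-29a-3p and miR-29b-3p shares the seed AGCACCA, and miR-15b-5p and miR-16-5p share AGCAGCA. The other sequences shown have a seed of their own. The miR-29 family is known to repress collagen and other matrix messages, and miR-21 is abundant in many carcinomas.

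Promoters of 4 genes are shown, since the marks bear on their starts: the gene whose own domain gained most H3K27ac in Res (Slc44a1), the lipid droplet gene Plin2, and the genes whose domains lost most H3K27ac (Colca2) and H3K9ac (Rhoc) with the knockdown. Each is 300 bases, 250 before the start and 50 after, 5′ to 3′ on the gene's strand, from RefSeq on GRCm38.p6. Capitals mark matches, on either strand and with overlaps allowed, to the TATA box TATAAA, the CCAAT box CCAAT, the GC box GGGCGG, the AP-1 site TGANTCA, the CRE TGACGTCA, the E-box CACGTG and the ETS core CCGGAAG.
Slc44a1 (chr4:53440163-53440462, + strand): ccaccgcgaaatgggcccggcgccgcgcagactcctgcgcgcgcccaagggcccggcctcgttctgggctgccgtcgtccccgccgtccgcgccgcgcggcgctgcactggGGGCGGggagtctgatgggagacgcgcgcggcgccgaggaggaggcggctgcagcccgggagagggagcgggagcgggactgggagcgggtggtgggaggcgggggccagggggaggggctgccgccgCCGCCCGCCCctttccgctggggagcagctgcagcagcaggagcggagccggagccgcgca
Plin2 (chr4:86670010-86670309, - strand): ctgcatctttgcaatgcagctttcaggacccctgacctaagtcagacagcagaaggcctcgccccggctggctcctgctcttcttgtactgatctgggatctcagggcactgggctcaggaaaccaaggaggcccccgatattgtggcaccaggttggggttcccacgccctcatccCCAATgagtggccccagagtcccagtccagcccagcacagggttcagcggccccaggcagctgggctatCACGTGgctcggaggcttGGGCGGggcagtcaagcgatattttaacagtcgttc
Colca2 (chr9:51278505-51278804, - strand): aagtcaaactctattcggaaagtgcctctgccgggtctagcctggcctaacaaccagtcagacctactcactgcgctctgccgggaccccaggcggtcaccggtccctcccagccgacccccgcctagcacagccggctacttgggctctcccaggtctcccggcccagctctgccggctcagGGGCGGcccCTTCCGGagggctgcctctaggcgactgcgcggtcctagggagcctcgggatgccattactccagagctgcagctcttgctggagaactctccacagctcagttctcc
Rhoc (chr3:104788784-104789083, + strand): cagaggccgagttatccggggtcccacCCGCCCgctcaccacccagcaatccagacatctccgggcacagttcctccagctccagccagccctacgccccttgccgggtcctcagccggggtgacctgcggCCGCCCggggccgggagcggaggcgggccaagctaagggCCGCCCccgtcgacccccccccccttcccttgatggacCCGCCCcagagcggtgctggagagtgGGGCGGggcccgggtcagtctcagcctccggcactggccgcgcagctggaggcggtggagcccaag
The Slc44a1 window holds 3 GC boxes and 43 CG pairs. The Plin2 window holds 1 CCAAT box, 1 GC box and 1 E-box, with 10 CG pairs. The Colca2 window holds 1 GC box and 1 ETS core, and the Rhoc window 5 GC boxes. A match is a description of letters and not evidence of binding.

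Promoters of 283 protein-coding genes began in broad domains, counting 1 window a gene, and 6528 in the shorter regions with a peak in every library. The TATA box was found in 16.3% of windows in broad domains, in 5.6% of those in shorter regions and in 13.3% of all 17492 windows. Histone genes carried much of this: 69.2% of their 26 windows held it, against 10.9% of the other 257. The AP-1 site was in 8.8% of windows in broad domains, 4.1% in shorter regions and 7.1% of all, and the ETS core in 8.5%, 22.6% and 11.9%. The GC box was in 64.3%, 70.6% and 46.3%. Median GC content was 61.0% in broad domains, 62.3% in shorter regions and 56.3% over all windows.

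The Mir29a/Mir29b-1 domain (chromosome 6, 31055040 to 31118903, 63864 bases on mm10) lay away from any protein-coding gene start, the nearest being Klf14. Its H3K27ac level, in CPM (tags per 1000000 tags of the tested regions, TMM-scaled), was 1372, 1410 and 1461 in Res_shFabp7, 1405, 1508 and 1477 in Res_Ctrl, 1459, 1576 and 1363 in Res, and 1713, 1805 and 1814 in Sen. All 3 Sen libraries lay above the other 9. Res against Sen gave a log2 change of -0.28 (SE 0.065, edgeR quasi-likelihood test, Benjamini-Hochberg adjusted p = 0.0043, 3 libraries each), which became 0.06 (adjusted p = 0.6) once each chromosome's median change was removed. H3K9ac in the same domain was also lower in Res, with a log2 change of -0.44 (SE 0.068, adjusted p = 5.66e-05), against -0.14 (adjusted p = 0.0926) with chromosome medians removed.

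Mir21a lies at the end of Vmp1, and its domain (chromosome 11, 86573045 to 86619350) went the other way. It had 1297, 1430 and 1444 CPM in Res_shFabp7, 1046, 1264 and 1332 in Res_Ctrl, 1769, 2043 and 1907 in Res, and 1088, 1222 and 1178 in Sen. The 3 Res libraries stood above all others. The log2 change was 0.71 for Res against Sen (SE 0.091, adjusted p = 4.41e-05; 0.36 per called base and 0.32 with chromosome medians removed) and -0.65 for Res_Ctrl against Res (SE 0.091, adjusted p = 9.7e-05), the same Res libraries serving in both. With chromosome medians removed the second of these was -0.25 (adjusted p = 0.0803). The Mir125b-1 domain (chromosome 9) averaged 620 ± 0.196 CPM in Res and 424 ± 7.49 in Sen (SD, n = 3 each), a log2 change of 0.55 (SE 0.078, adjusted p = 0.000115), which per called base was 0.15 (adjusted p = 0.0886). The domain of the Mir23a, Mir27a and Mir24-2 cluster (chromosome 8) averaged 500 ± 27.4 in Res and 315 ± 13.1 in Sen, a log2 change of 0.67, or 0.35 per called base and 0.33 with chromosome medians removed. It held 10 kb of called peaks in Res and not in Sen, so no test is given for it. The domain at Ift80 and Smc4, which holds Mir15b and Mir16-2, differed by 0.22 (SE 0.121, adjusted p = 0.179). None of these 5 domains passed the test for Res_shFabp7 against Res_Ctrl.

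The 726 domains had a median length of 12.7 kb. The longest was 63.9 kb, 197 were 15 kb or longer, and 19 were 30 kb or longer. They made up 6.22% of the regions with a peak in every library and 18.7% of the length of those regions. A single peak of 10 kb or more was called within the domain in every library in 27 domains and in at least 1 library in 589. At the length limit, the shortest members were Asxl2 (10004 bases), Antxr2 (10012) and a stretch in Lgr6 (10015), and the longest regions just under it measured 9981, 9982 and 9986 bases, the last at Inava. Their mean levels were 189.7, 160.1 and 269.6 CPM just inside, and 168, 147.1 and 304 just outside.

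**Figure D1:**
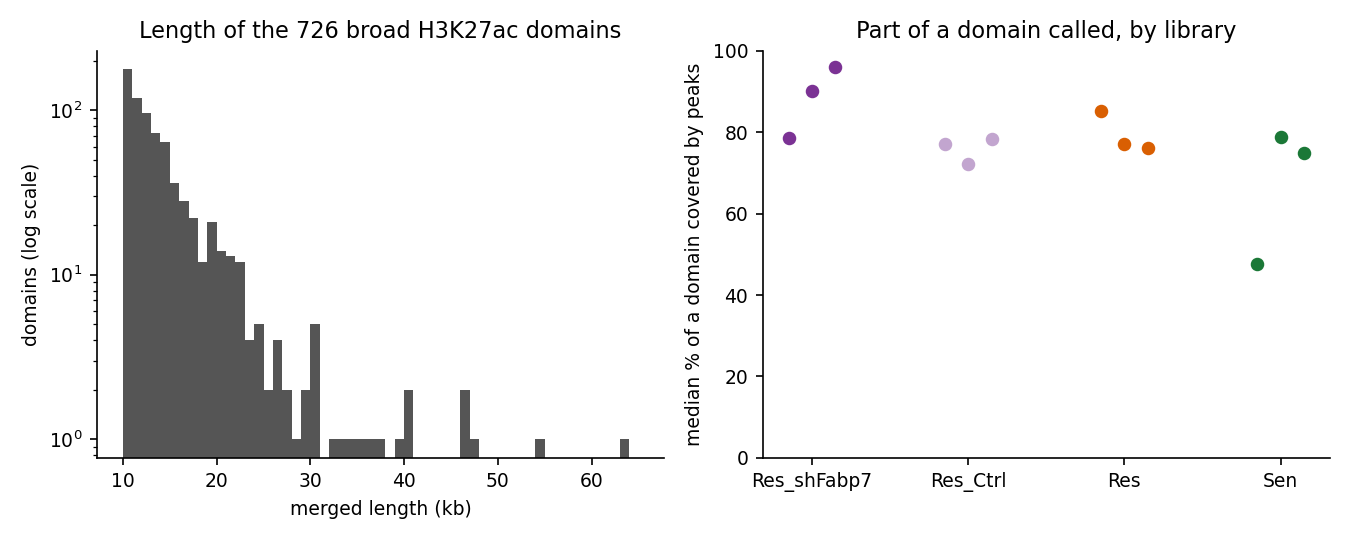
Left, number of broad domains (log scale) by merged length in kb. Right, the median percent of a domain covered by peaks in each of the 12 H3K27ac libraries; 1 Sen library, at 47.7%, lies below all others.

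The deposited tags were counted only inside called peaks, so a domain's sum depends on how much of it was called. Tags in peaks ran from 5.1 to 10.5 M in Res_shFabp7, 3.7 to 4.65 M in Res_Ctrl, 5.08 to 7.35 M in Res and 2.24 to 5.91 M in Sen. In the shallowest library, Sen replicate 1, the median domain was covered to 47.7%, and in the other 11 to between 72.2% and 96.0%. Domains took 15.2% ± 0.265 of the tags in peaks in Res_shFabp7, 16.7% ± 0.808 in Res_Ctrl, 16.5% ± 0.866 in Res and 16% ± 0.557 in Sen (SD, n = 3 each). The median domain held 1044 tags per library, against 263 in the 10953 shorter regions, and thus gave the test more counts.

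By position, 322 domains held the start of a protein-coding gene, 222 lay inside or at the end of one, 56 held the start of a microRNA or long non-coding RNA only, and 126 lay between genes. They held 403 protein-coding genes, with 53 domains holding 2 or more and 1 histone cluster holding 9. Of these genes, 102 had no listed start and were placed by either annotated end, in the domain or within 1 kb of it. Domains with such genes are counted here as holding a start. H3K9ac, which the rule did not use, had a peak in all 12 of its libraries in 573 of the 726 domains (78.9%) and in 8327 of the shorter regions (76.0%). Among domains with a protein-coding start that share was 97.5%, against 61.9% of those between genes. Chromosome 3 held 100 domains, which is 13.8% of them and 13.5% of its regions, against 6.22% over all chromosomes.

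The labelled cell type was checked against marker genes. Of 10 epithelial and lung adenocarcinoma markers, Krt8, Krt18, Krt19, Krt7 and Foxa2 had an H3K27ac peak at the start in all 12 libraries and Cdh1 in 11, while Epcam, Cldn4, Cldn7 and Nkx2-1, the lung lineage factor, had none. None of 5 immune and none of 4 endothelial markers had a peak in any library. Of 5 fibroblast markers, Col1a1 had one in 11 libraries with 65 to 419 tags and Dcn in 1, while Pdgfra, Pdgfrb and Lum had none, and no fibroblast marker lay in a broad domain. Krt8, Krt18, Cdh1 and Foxa2 lay in broad domains.

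Domains at transcription factors of the foregut endoderm included the steadiest and some that changed. Foxa1, a pioneer factor of lung and gut, had the lowest coefficient of variation of all 726 domains, 2.79% over 12 libraries. Its domain (chromosome 12) had 469.5, 484.2 and 462.6 CPM in Res_shFabp7, 471.2, 499.3 and 501.3 in Res_Ctrl, 475.8, 479.0 and 469.0 in Res, and 488.9, 482.2 and 459.4 in Sen. The 4 groups overlapped. Runx1, Irf2bpl and Wsb2 followed, with 4.46%, 4.76% and 4.97%, against a median of 20.7% over the domains.

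Between Res and Sen, 252 of the 726 domains were higher in H3K27ac and 176 lower at an adjusted p under 0.05, that is 34.7% and 24.2%. Over all 11679 regions tested the shares were 20.5% and 17.3%. The median log2 change was 0.11 in the domains and -0.01 over all regions. The 222 domains inside genes had 93 higher and 46 lower, and the 322 at protein-coding starts 101 higher and 94 lower. With tags set per called base, 158 domains were higher and 116 lower. For this and the other alternative settings below, counts are of domains alone. Shares over all regions under those settings are not given, so such counts are not set against a background. The balance turned to 63 higher and 79 lower among the 285 domains covered to 50% in every library. That filter leans on Sen replicate 1, which covered the median domain to only 47.7%. It therefore selects domains by their called length in Sen, and the turned balance is not a separate result.

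The length rule bears on these counts. In 128 of the 252 higher domains and 72 of the 176 lower ones, 10 kb of called peaks was reached in some library of the higher group and in none of the lower group, so that such a domain could be a member through the group where it is high. Over the other 495 domains 124 were higher and 104 lower. For the one-sided domains H3K27ac values are given below as descriptions, with no test, and the list counts that follow include them. H3K9ac tests are still given at some of these domains. The changes of the 2 marks ran together across domains (Pearson's r of 0.82 for Res against Sen), and H3K9ac tags too were counted only inside called peaks. Such a test is therefore not independent support for the H3K27ac change. Per called base, 60 of the 70 H3K27ac values named here that passed the threshold were smaller by over 1.5 times or turned sign, and 13 no longer passed; for H3K9ac it was 23 and 9 of 25.

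**Figure D2:**
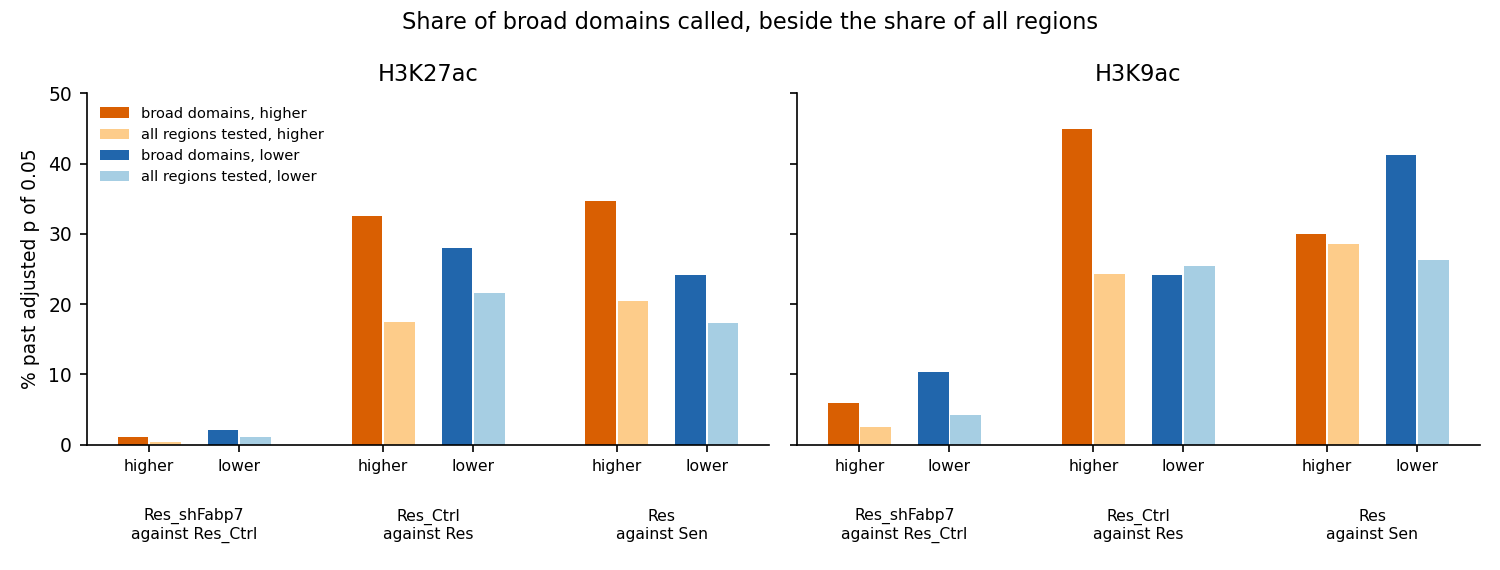
Percent of broad domains past an adjusted p of 0.05, higher or lower, beside the percent of all tested regions, for each comparison and mark. For Res_shFabp7 against Res_Ctrl the H3K27ac bars are at 1.1% and 2.07% of the domains.

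The domains with the highest log2 changes among those past the threshold mostly lay inside or between genes. A 27.4 kb stretch in Galk2, a sugar kinase gene, had 809.7, 974.2 and 827.2 CPM in Res and 19.09, 110.8 and 76.72 in Sen. Peaks covered 25.3 to 27.3 kb of it in Res and 0.96 to 8.49 kb in Sen. The groups did not overlap, and the log2 change was 3.59, or 1.27 per called base. Stretches nearest to Klf4, Nfib, Actl7b and Mreg, each over 90 kb from the gene named, had log2 changes of 2.88, 2.44, 2.35 and 2.12, or 0.79, 0.79, 0.72 and 0.37 per called base. Slc44a1, a choline transporter, was the highest-ranked domain with a protein-coding start: it had 308.1, 329.3 and 355.7 CPM in Res against 47.49, 80.7 and 79.9 in Sen. Its log2 change was 2.23 in H3K27ac, or 0.55 per called base. In H3K9ac, at this domain picked by its H3K27ac change, it was 1.45 (SE 0.061, adjusted p = 6.47e-11).

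The domains with the lowest log2 changes past the threshold were led by a stretch in Tspan15, a tetraspanin that partners with the protease ADAM10. It had 32.87, 19.33 and 17.59 CPM in Res and 230.0, 248.1 and 261.0 in Sen. Res peaks covered 1.21 to 2.56 kb of it, and Sen peaks 6.99 to 10.0 kb. The log2 change was -3.38, or -0.89 per called base. Gins1, a subunit of the replicative helicase, averaged 30.04 ± 1.39 CPM in Res and 187.5 ± 49.3 in Sen, a log2 change of -2.65, or -0.21 per called base. Its H3K9ac was lower as well, with a log2 change of -1.54 (SE 0.153, adjusted p = 6.04e-07). Anxa4, a calcium-dependent phospholipid binding protein, had a log2 change of -2.43, and stretches near Abhd2, in the glutamate transporter gene Slc1a2 and near Wdr7 had -2.42, -2.32 and -2.19. Per called base these 4 stood at -0.71, -0.64, -0.53 and -0.37.

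Of 24 lung and gut endoderm factors, 7 lay in broad domains, and 3 of these were called lower and 1 higher in Res, against 17.3% and 20.5% of all regions. Hnf4a, a nuclear receptor of gut and liver, had 88.58, 77.55 and 54.84 CPM in Res and 99.17, 170.5 and 187.4 in Sen. The groups were apart by little, with Sen replicate 1 closest to Res, and the log2 change was -1.06, or -0.24 per called base. Foxa2 had 159.8, 165.9 and 154.7 in Res and 317.5, 295.4 and 294.7 in Sen, a log2 change of -0.92, or -0.32 per called base. Gata6 fell by 0.56 on the log2 scale (-0.27 per called base), while Id2, an inhibitor of helix-loop-helix factors, rose by 0.35, or 0.18 (adjusted p = 0.105) with chromosome medians removed. H3K9ac was lower at Foxa2 (log2 change -1.05, SE 0.052, adjusted p = 3.24e-10; -0.63 per called base). At Hnf4a its log2 change was -1.35, but per called base it stood at -0.08 (adjusted p = 0.6).

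Of 24 genes for keratins and junction proteins, 5 lay in domains, 2 of which were called higher and 2 lower (20.5% and 17.3% of all regions). The 2 called higher were those of Jup and Krt80, and the median log2 change over the 5 was 0.28. Krt18, a simple epithelial keratin, had 225.3, 235.3 and 238.0 CPM in Res and 486.1, 494.2 and 491.1 in Sen, a log2 change of -1.08, or -0.30 per called base. Its H3K9ac had a log2 change of -0.96 (SE 0.063, adjusted p = 7.12e-09; -0.32 per called base). Its partner Krt8 fell by 0.53, and by 0.32 with chromosome medians removed. The Cdh1 domain, at the gene of E-cadherin, measured 46.5 kb. It had 977, 1065 and 1083 CPM in Res_shFabp7, 364.1, 1345 and 1187 in Res_Ctrl, 1068, 1226 and 1132 in Res, and 676.5, 879.4 and 901.2 in Sen. Res_Ctrl replicate 1 stood far below the other 11 libraries, with 13.9 kb of the domain called, and Res against Sen, at a log2 change of 0.48 (SE 0.311), did not pass (adjusted p = 0.247). Fitted on the 6 Res and Sen libraries alone, the change was 0.46 with an adjusted p of 0.0156.

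**Figure D3:**
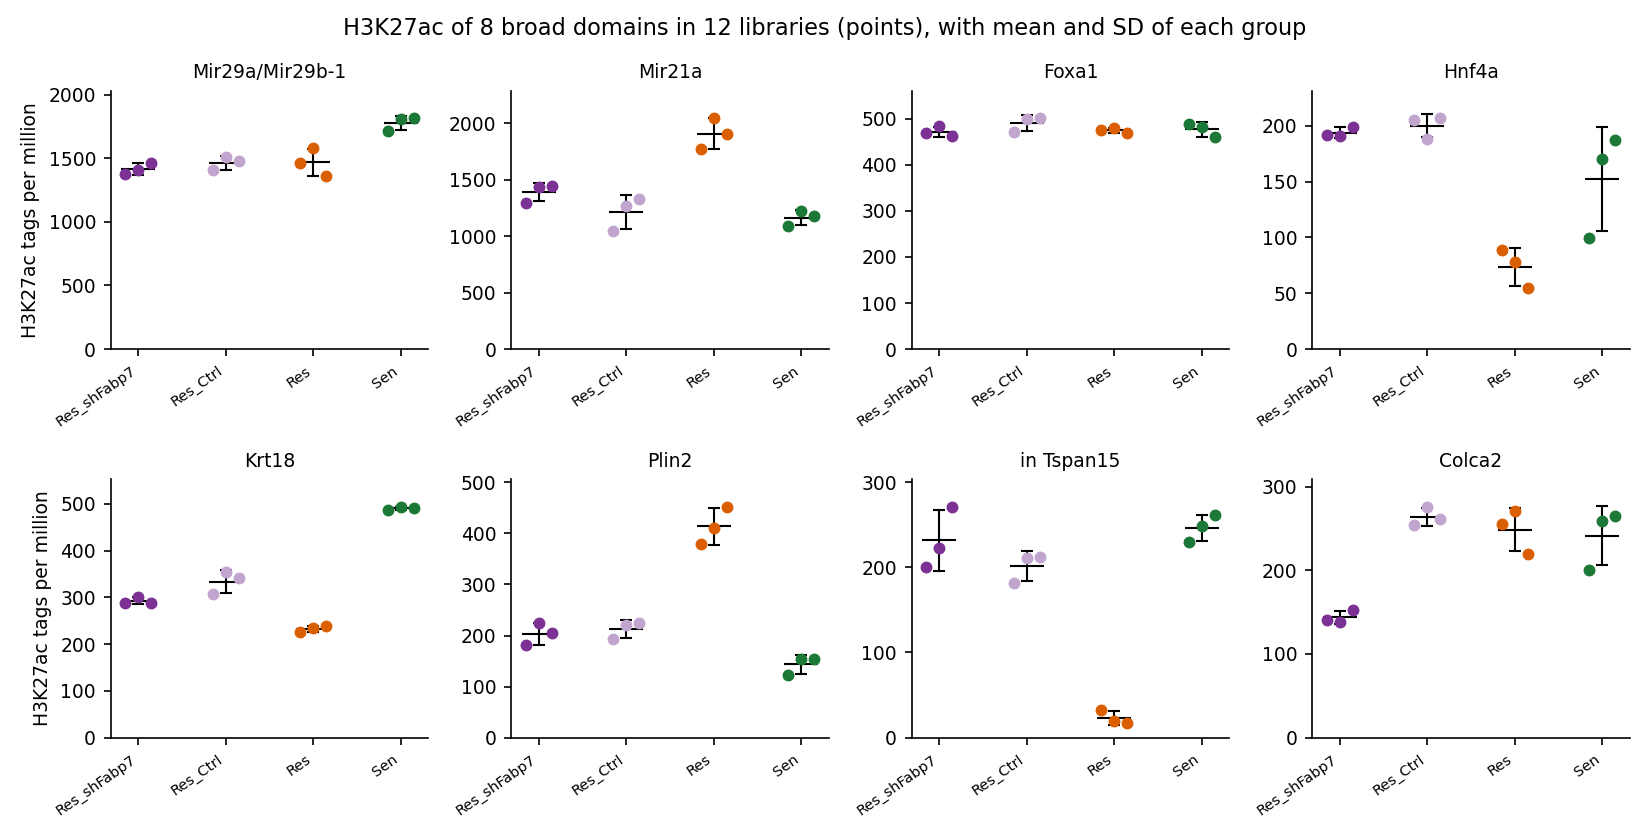
H3K27ac level, in CPM, of 8 broad domains in 12 libraries; each point is a library, the bar its group's mean and the whisker its SD (n = 3). Foxa1 is level over the groups, Plin2 is highest in Res, the Tspan15 stretch is lowest in Res, and Colca2 is lowest in Res_shFabp7.

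Targets of Hippo and TGF-beta signalling held 6 domains, of which 4 rose and 0 fell in Res (20.5% and 17.3% of all regions). Skil, a TGF-beta corepressor, averaged 358 ± 30.8 CPM in Res and 225 ± 8.93 in Sen, a log2 change of 0.67 (SE 0.102, adjusted p = 0.000185), or 0.21 per called base. Ankrd1, a target of YAP, rose by 0.49 (0.18 per called base), Tgif1, a SMAD corepressor, by 0.48, and Smad7, the inhibitory SMAD, by 0.33. With chromosome medians removed Tgif1 was at 0.15 (adjusted p = 0.15), and with peaks merged across gaps of 1 kb Smad7 was at 0.03 (adjusted p = 0.785). Among 7 domains of receptor tyrosine kinase signalling and its feedback, 1 was called higher and 3 lower (20.5% and 17.3% of all regions). The MAP kinase phosphatase Dusp4 stood at 0.35 and Dusp6 at -0.30. With chromosome medians removed Dusp4 was at 0.02 and did not pass, and Dusp6 was at -0.12. Per called base Dusp6 was at 0.16. Dusp6 reached 10 kb of called peaks in Sen only, so no test is given for it.

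Of 7 domains of AP-1 and immediate early factors, 3 rose and 2 fell in Res, against 20.5% and 17.3% of all regions. Klf6 rose by 0.43 (0.20 per called base), Myc by 0.37 and Jund by 0.35, while the domain of Zfp36, which binds AU-rich messages, fell by 0.46 (-0.20 per called base). Jund was at 0.02 (adjusted p = 0.89) with chromosome medians removed. The 29 replication-dependent histone genes in domains shared 7 domains, of which 0 were called higher and 4 lower, against 20.5% and 17.3% of all regions. The domain of H4c8, H2ac10 and H3c8 had a log2 change of -0.38, or -0.23 per called base. These genes lie in clusters, and copies of 1 histone type are similar in sequence. Whether the aligner split reads among them was not tested.

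Lipid genes held 4 domains, of which 2 were called higher and 1 lower in Res (20.5% and 17.3% of all regions). Plin2 codes for a coat protein of lipid droplets. It had 181.3, 223.7 and 205.0 CPM in Res_shFabp7, 192.9, 220.4 and 225.2 in Res_Ctrl, 379.8, 410.8 and 452.4 in Res, and 122.4, 153.4 and 154.2 in Sen. Res was above all other libraries, and the log2 change against Sen was 1.52, or 0.87 per called base. Acsl5, a fatty acyl-CoA synthetase, fell by 0.35, and stood at -0.12 per called base (adjusted p = 0.137). Of the ferroptosis list, Fth1 and Ftl1, the ferritin chains that store iron, lay in domains, and Fth1 had a log2 change of -0.32, or -0.16 per called base.

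Slc7a5, a transporter of large neutral amino acids, was the single domain of the stress response list. It had 250.3, 257.9 and 267.2 CPM in Res and 91.25, 137.1 and 105.6 in Sen, without overlap, a log2 change of 1.20, which was 0.41 per called base and 0.53 with peaks merged within 1 kb. Its H3K9ac rose by 0.97 (SE 0.124, adjusted p = 8.72e-06), or by 0.55 with peaks merged within 1 kb. Of 3 matrix and adhesion domains, the laminin receptor subunit Itga3 rose by 0.72 and the urokinase receptor Plaur stood at -0.37. With chromosome medians removed these were 0.33 and -0.19. Plaur reached 10 kb of called peaks in Sen only, so no test is given for it. Of 3 chromatin domains 1 rose and 1 fell, against 20.5% and 17.3% of all regions. The domain that fell was Hdac7, a class IIa deacetylase, at -0.40, or -0.19 (adjusted p = 0.137) with chromosome medians removed. Of 5 housekeeping domains 1 rose and 3 fell, against the same shares, with Actb at -0.29 (-0.05 per called base, adjusted p = 0.653). Of 3 cytokine and 1 clock domains (Tnfaip3, Lif, Cxcl5 and Bhlhe40) none passed.

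H3K9ac was tested in the 573 domains with a peak in all 12 of its libraries. Between Res and Sen, 172 were higher and 236 lower (30% and 41.2%), against 28.6% and 26.3% of the 9983 regions tested. Per called base the split turned round, to 223 higher and 81 lower. H3K9ac peaks covered 30.2% to 35.1% of the median domain in Res and 39.7% to 53.0% in Sen, with 3.02 to 3.89 M tags in peaks in Res and 4.2 to 11.5 M in Sen. The changes of the 2 marks ran together across domains, with Pearson's r of 0.82 over 573 domains and the same 0.82 over the 8900 regions tested in both, a description over regions whose libraries are shared. Of these domains 147 were higher in both marks (25.7%, against 17.6% of the regions tested in both), 120 lower in both (20.9%, against 11.4%), 5 higher in H3K27ac and lower in H3K9ac, and 0 the reverse.

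**Figure D4:**
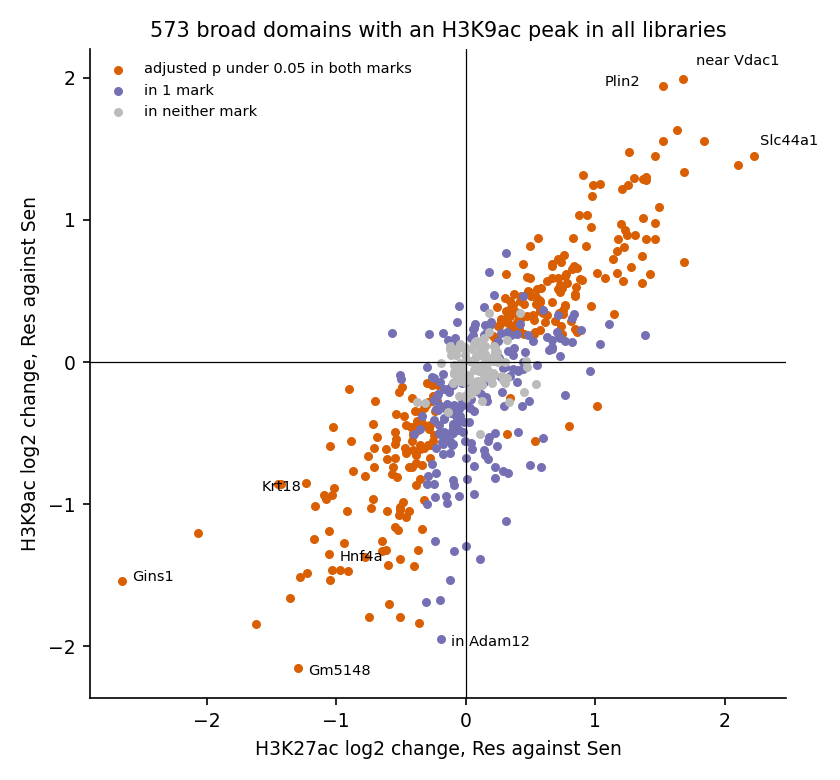
Log2 change of Res against Sen in H3K27ac (x axis) and H3K9ac (y axis); each point is 1 of the 573 domains, coloured by whether it passed in both marks, 1 or neither. Points follow the diagonal (r = 0.82), and the stretch in Adam12 lies well below it.

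The stretch nearest to Vdac1 (log2 change 1.99), Plin2 (1.94) and the gene Gm36354 (1.63) rose most in H3K9ac, with 0.88, 0.77 and 1.08 per called base. Plin2 had 237.5, 246.2 and 261.9 H3K9ac CPM in Res and 49.01, 85.48 and 54.69 in Sen. The Gm5148 domain fell most, with 60.44, 47.64 and 53.41 in Res and 229.5, 244.6 and 240.2 in Sen, a log2 change of -2.15 (SE 0.12, adjusted p = 1.27e-09), or -0.31 per called base. A stretch in Adam12, a metalloprotease gene, fell by 1.95 in H3K9ac, while its H3K27ac differed by -0.19 (adjusted p = 0.173). Ube2h, a ubiquitin-conjugating enzyme, fell by 1.85 in H3K9ac, though per called base it was at -0.04 and the Adam12 stretch at -0.05.

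Changes also followed chromosomes. On chromosome 11, 42 of 63 domains rose and 4 fell in H3K27ac, with a median log2 change of 0.60 in the domains and 0.41 over all its regions. Chromosome 8 had 35 higher and 3 lower of 62, with medians of 0.40 and 0.34. Chromosome 17 had 16 higher and 3 lower of 28, with medians of 0.45 and 0.34. On chromosome 15, 6 rose and 20 fell of 47, with medians of -0.13 and -0.2. Over all chromosomes 20.5% of regions were called higher and 17.3% lower. On each of these 4 chromosomes the median over all regions thus had the same sign as the median of its domains. With each chromosome's median removed, 206 domains were higher and 155 lower over the genome, with no share over all regions given for that setting.

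**Figure D5:**
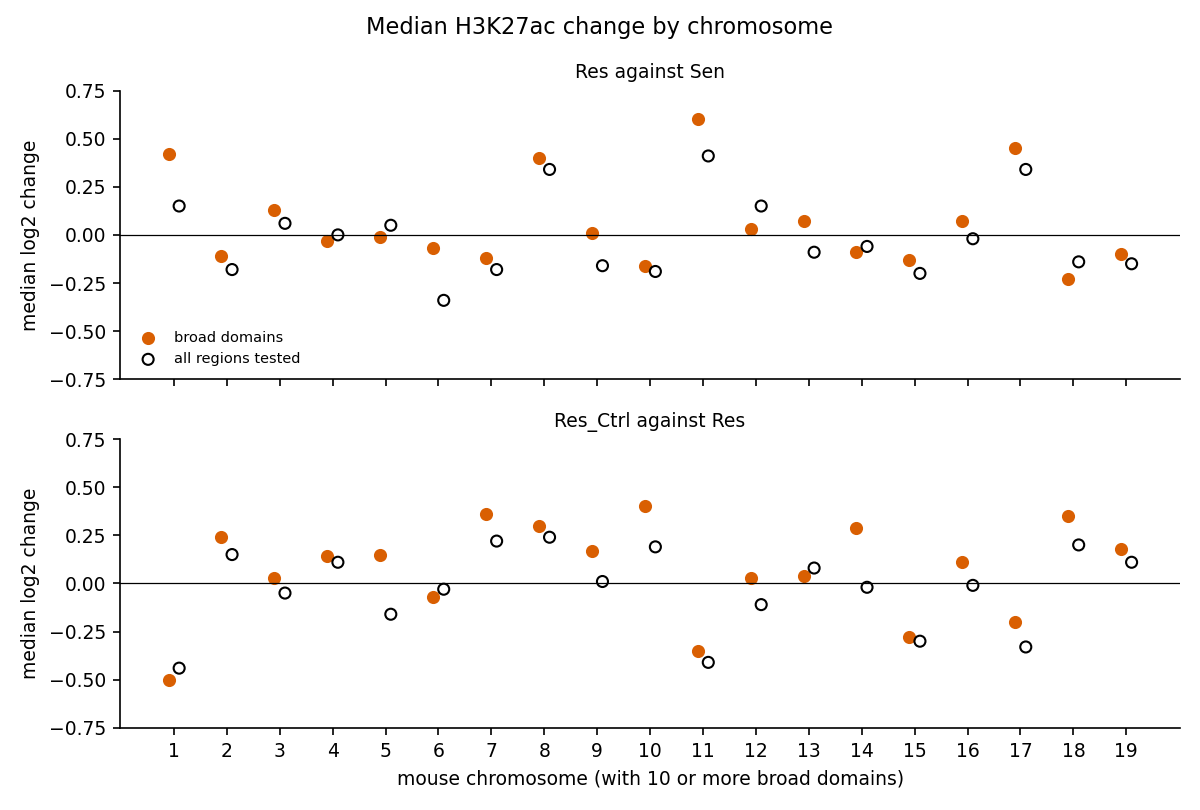
Median H3K27ac log2 change of the broad domains (filled) and of all tested regions (open) on each chromosome with 10 or more domains. For Res against Sen both medians lie above 0 on chromosomes 1, 3, 8, 11, 12 and 17. For Res_Ctrl against Res both lie below 0 on chromosomes 1, 6, 11, 15 and 17.

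In H3K27ac few domains differed between the Fabp7 hairpin and the control cells. In Res_shFabp7 against Res_Ctrl, 8 domains were higher in H3K27ac and 15 lower, 1.1% and 2.07%, against 0.437% and 1.02% of all regions. Of these, 5 higher and 3 lower domains reached 10 kb of called peaks in the higher group only. With the replicate number as a block, since same-numbered libraries of these groups deviated together, 25 were higher and 64 lower. Leaving out 1 library gave fewer: 2 higher and 3 lower without Res_shFabp7 replicate 1, 0 and 3 without replicate 2, 0 and 5 without replicate 3, 2 and 9 without Res_Ctrl replicate 1, 1 and 3 without replicate 2, and 0 and 4 without replicate 3. Res_shFabp7 libraries were also more widely called than those of Res_Ctrl, at 78.5% to 96.0% of the median domain against 72.2% to 78.2%. Per called base 4 domains were higher and 65 lower, and an offset that removes the trend with intensity left 19 higher and 16 lower.

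Colca2 had the lowest log2 change of the 15 domains called lower. Its domain (chromosome 9, 51267749 to 51280823) had 141.1, 138.0 and 152.9 CPM in Res_shFabp7, 254.3, 276.2 and 261.6 in Res_Ctrl, 255.4, 271.1 and 220.1 in Res, and 200.7, 258.6 and 264.6 in Sen. The 3 knockdown libraries lay below the other 9, with a log2 change of -0.87, or -0.28 per called base. H3K9ac at Colca2 was lower as well, by -0.70 (adjusted p = 0.0124), though not without Res_Ctrl replicate 2 (-0.56, adjusted p = 0.0663) or per called base (-0.20, adjusted p = 0.239). A stretch far from any coding gene, nearest to Olig3, had 191.3, 191.8 and 192.5 in Res_shFabp7 and 279.9, 318.9 and 313.4 in Res_Ctrl. Its log2 change was -0.66 (SE 0.095, adjusted p = 0.0065) in H3K27ac, with an adjusted p of 0.0516 where peaks were kept at 1e-10, and -0.78 (SE 0.102, adjusted p = 0.000558) in H3K9ac. Per called base these were -0.39 and -0.49.

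Rhoc, a GTPase of the actin cytoskeleton, had lower tag sums in both marks. In H3K9ac it had 129.1, 126.4 and 121.9 CPM in Res_shFabp7 and 244.3, 267.7 and 236.6 in Res_Ctrl, with called lengths of 3.82 to 3.83 kb and 5.3 to 7.02 kb. The log2 change was -0.99 (SE 0.067, adjusted p = 1.14e-06), or -0.05 per called base (adjusted p = 0.724). In H3K27ac it was -0.56, or -0.23 per called base. Called H3K27ac peaks reached 10 kb there in Res_Ctrl only, so no test is given. Rhoc counted among the domains called lower, but not with any 1 library left out or with chromosome medians removed. A stretch near Epn2 had a log2 change of -0.82 and one in Rasa3 of -0.63, or -0.44 and -0.32 per called base. With chromosome medians removed neither passed (adjusted p = 0.0644 and 0.0959). For the Epn2 stretch the adjusted p lay between 0.0546 and 0.185 with any 1 library left out, and for Rasa3 it was 0.0656 without Res_Ctrl replicate 2, 0.0529 without Res_shFabp7 replicate 1 and 0.0605 without Res_shFabp7 replicate 2.

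The 3 highest log2 changes past the threshold were all at one-sided domains, and per called base they were 0.04 or less. A stretch in Matn2, a matrix adaptor gene, had 84.54, 144.5 and 134.1 CPM in Res_shFabp7 and 39.0, 29.39 and 58.93 in Res_Ctrl, with 6.33 to 11.1 kb and 1.72 to 3.74 kb called. Its log2 change was 1.51, or -0.06 per called base. Stretches in Arhgef5 and near Naa11 had 1.04 and 0.80, and -0.01 and 0.04 per called base. Of the listed genes, Smad7 alone passed, at -0.33 (adjusted p = 0.042). It missed the threshold without any 1 of the 6 libraries, per called base (-0.10, adjusted p = 0.355) and with chromosome medians removed (-0.25, adjusted p = 0.166). In H3K9ac 34 of 573 domains were higher and 59 lower (5.93% and 10.3%, against 2.51% and 4.23% of all regions).

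A stretch in Tpm1, a tropomyosin gene, rose most in H3K9ac, with 56.59, 70.3 and 69.94 CPM in Res_shFabp7 and 27.42, 26.91 and 21.77 in Res_Ctrl. The log2 change was 1.4 (SE 0.14, adjusted p = 4.54e-05), or -0.16 per called base, and H3K27ac there differed by 0.05 (adjusted p = 0.927). The domain of Tnfrsf26 and Tnfrsf22, receptors of the TNF family, rose by 0.95 and one in Kirrel3 by 0.89, with -0.18 and -0.23 per called base. For Tnfrsf26 and Tnfrsf22 the adjusted p was 0.093 without Res_Ctrl replicate 1, 0.13 without replicate 2, 0.145 without Res_shFabp7 replicate 2 and 0.0734 without replicate 3. The non-coding gene 4930461G14Rik fell by 0.84. Counts of H3K9ac calls moved with single libraries: 20 higher and 43 lower without Res_shFabp7 replicate 1, 17 and 42 without replicate 2, 18 and 27 without replicate 3, 22 and 51 without Res_Ctrl replicate 1, 18 and 32 without replicate 2, and 71 and 54 without replicate 3. Per called base 6 were higher and 124 lower.

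The 2 kinds of resistant cells without the Fabp7 hairpin differed far more. In Res_Ctrl against Res, 236 domains were higher in H3K27ac and 203 lower (32.5% and 28%, against 17.4% and 21.6% of all regions). In 71 of the higher and 116 of the lower ones 10 kb of called peaks was reached in the higher group only, and over the other 494 domains 165 were higher and 87 lower. H3K9ac was higher in 257 of 573 and lower in 138 (44.9% and 24.1%, against 24.3% and 25.4%). This comparison shares its Res libraries with Res against Sen. All 3 Res libraries lay above the other 9 in 168 domains (23.1%, against 15% of all regions) and below them in 122 (16.8%, against 9.94%). The same counts were 13 and 27 for Res_shFabp7 (1.17% and 2.36% of all regions), 67 and 8 for Res_Ctrl (3.47% and 2.69%), and 42 and 90 for Sen (6.36% and 5.76%). In H3K9ac, over the 573 domains, all 3 libraries lay above or below the other 9 in 27 and 15 domains for Res_shFabp7 (1.66% and 1.81% of all regions), 63 and 13 for Res_Ctrl (5.76% and 3.86%), 92 and 162 for Res (17.8% and 14.7%), and 57 and 86 for Sen (7.23% and 9.65%).

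The Tspan15 stretch had 200.8, 223.3 and 271.3 CPM in Res_shFabp7 and 181.4, 210.9 and 212.4 in Res_Ctrl, close to Sen, against the low Res values above. The log2 change of Res_Ctrl against Res was 3.08, or 0.64 per called base. Stretches near Wdr7, in Slc1a2 and in Glis3, a zinc finger factor gene, had log2 changes of 2.79, 2.64 and 2.51, or 0.61, 0.65 and 1.21 per called base. A stretch near Prelp had 58.23, 36.23 and 55.51 in Res_Ctrl and 305.5, 358.4 and 290.5 in Res, a log2 change of -2.66, or -0.60 per called base. A stretch in Pus10 and Rel had -2.59 and one in Med12l -2.18, or -0.58 and -0.24 per called base.

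Hnf4a, Foxa2, Plin2 and Skil had mean levels nearer to Sen in Res_Ctrl than in Res, as values set side by side with no test. Hnf4a averaged 199.8 ± 10.3 CPM in Res_Ctrl, 73.7 ± 17.2 in Res and 152.4 ± 46.8 in Sen, with a log2 change of Res_Ctrl against Res of 1.43, or 0.35 per called base. Foxa2 averaged 272 ± 11.4 in Res_Ctrl, 160.1 ± 5.6 in Res and 302.5 ± 13.0 in Sen, and was higher in Res_Ctrl by 0.76 (SE 0.074, adjusted p = 4.63e-06), or 0.27 per called base. Plin2 had a log2 change of -0.96 and Skil of -0.38, the second with -0.25 and an adjusted p of 0.0551 without Res_Ctrl replicate 1. Myc averaged 229.2 in Res_Ctrl, 396.7 in Res and 306.1 in Sen, a log2 change of -0.79 for Res_Ctrl against Res, or -0.34 per called base. Slc7a5 differed from these, averaging 257 ± 1.89 in Res_Ctrl and 258 ± 8.48 in Res, a log2 change of -0.01 (adjusted p = 0.977), which became 0.33 (adjusted p = 0.0127) when peaks were merged across gaps of 1 kb. Of the 6 Hippo and TGF-beta domains 0 were higher and 4 lower in Res_Ctrl, and of the 7 receptor tyrosine kinase domains 6 were higher and 0 lower, against 17.4% and 21.6% of all regions. Dusp5, a phosphatase of ERK, had a log2 change of 0.57, or 0.08 per called base (adjusted p = 0.586). The NF-kB inhibitor Tnfaip3, on the cytokine list, had 0.85, or 0.36 per called base.

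In H3K9ac, Gm34323, Prxl2a and a stretch in Abhd2 were highest in Res_Ctrl relative to Res, with log2 changes of 2.51, 2.26 and 2.21. Per called base these were 0.60, 0.26 and 0.25, and the Abhd2 stretch no longer passed (adjusted p = 0.0787). Prxl2a, a peroxiredoxin-like gene, had 148.5, 133.2 and 152.4 CPM in Res_Ctrl and 30.4, 35.12 and 25.27 in Res. The stretch near Vdac1, one in Nfix, a nuclear factor I gene, and the helix-loop-helix factor gene Atoh8 had log2 changes of -1.72, -1.70 and -1.69, or -0.41, -0.97 and -0.42 per called base.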

How the data were processed

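H3K27ac and H3K9ac ChIP-seq peak lists of 24 libraries were used, 3 per group and mark; the 4 inputs were not used here. Reads of 50 bases were aligned with Bowtie 1.1.2 to mm10 and peaks called with MACS 1.4.2, per the submitters' processing notes. Each deposited peak gives a tag count (NumTags), a score made from the log10 of the caller's p (50 stands for 1e-05), and a fold enrichment; the deposited fold ratio was not tested. The depth of whole libraries beyond tags in peaks was not used, and the precision rests on 41 or more H3K27ac tags per domain and library.

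Overlapping H3K27ac peaks were merged and tags summed per region and library. H3K9ac peaks were assigned to the region of longest overlap. Sums in regions with a peak in all 12 libraries of a mark were tested with edgeR 4.0.16 (R 4.3.3, TMM scaling, quasi-likelihood test, 4 groups in 1 fit, Benjamini-Hochberg over all regions, 0.05). The fit was tested on simulated counts per region, which did not include the calling of peaks. Gene starts, microRNAs and promoters came from RefSeq GRCm38.p6; of the 403 protein-coding genes, 102 without a listed start were placed by an annotated end. Domains without a start are called by the gene they lie in or nearest to.

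Domains were named by a rule on length, size of change, gene lists, steadiness and closeness to the length limit, which gave 101. The members and lists were chosen with earlier results of these data known. Same-numbered H3K27ac libraries of Res_shFabp7 and Res_Ctrl deviated together (r = 0.42, 0.188 and 0.235 for replicates 1, 2 and 3, across regions). For Res_Ctrl and Res the r was 0.383, 0.102 and 0.105, and for Res and Sen 0.274, 0.0722 and 0.136. Replicate 2 of Res_Ctrl correlated best with replicate 3 of Res, and replicate 2 of Res with replicate 3 of Sen. The labels do not say what the numbers mark. The split of domains by whether 10 kb of called peaks was reached in 1 group of a comparison only was chosen after seeing the data.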

Additional observations from a re-analysis of the deposited data

How the results depend on the processing

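Tag sums follow called length. The counts in this section are of domains alone, with no share over all regions under each setting. H3K27ac counts for Res_shFabp7 against Res_Ctrl (8 higher, 15 lower) became 15 and 29 with the DESeq2 test, 4 and 65 per called base, 19 higher with the intensity trend offset, 1 and 3 with chromosome medians removed, 25 and 64 with the replicate block, 13 and 42 from 6 libraries alone, and 4 and 9 at a caller's p of 1e-10. H3K9ac in that comparison gave 6 higher and 124 lower per called base and 33 lower with chromosome medians removed. Per called base, H3K27ac in Res against Sen gave 158 and 116, H3K9ac 81 lower, and H3K9ac in Res_Ctrl against Res 146 higher. Merging peaks within 1 kb gave 364 higher in H3K27ac for Res_Ctrl against Res, 21.2% of tags in domains and 644 protein-coding genes.

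Stricter rules kept fewer domains. Asking for 50% coverage in every library left 285, with 8.31% of tags, 231 genes, and higher and lower counts in H3K27ac of 63 and 79 (Res against Sen), 0 and 8 (Res_shFabp7 against Res_Ctrl) and 81 and 62 (Res_Ctrl against Res), and in H3K9ac of 62 and 136, 14 and 35, and 133 and 52. A length of 15 kb left 197, with 6.84% of tags, 116 genes, and 63 and 50, 2 and 3, 60 and 63 in H3K27ac, and 52 and 69, 11 and 17, 77 and 44 in H3K9ac, in the same order.

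Leaving out 1 library gave, for Res_shFabp7 against Res_Ctrl, 0 to 2 higher and 3 to 9 lower in H3K27ac, and 17 to 71 higher and 27 to 54 lower in H3K9ac. The sign turned per called base for Dusp6 in Res against Sen (0.16), for the stretches in Matn2 (-0.06) and Arhgef5 (-0.01) with the knockdown, and in H3K9ac for Tnfrsf26/Tnfrsf22 (-0.18) and the stretches in Kirrel3 (-0.23) and Tpm1 (-0.16). It turned for Mir29a/Mir29b-1 in Res against Sen with chromosome medians removed (0.06), and for Slc7a5 in Res_Ctrl against Res with peaks merged within 1 kb (0.33). The cause was not tested. The replicate block moved no other count of calls by over 1.5 times.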
